A study of Mus musculus with 19 samples.

Results

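Skin tumours started by oncogenic BRAF in cells with an active Krt5 promoter were compared, over all genes, with tumours started by the same allele in cells with an active Krt14 promoter. The samples were chosen by their titles, 5 K5 tumours and 4 K14 tumours of 19 libraries, and the table held 34807 genes. RNA had been taken from frozen whole tumours, and the poly(A) fraction was sequenced to ask how the cell of origin bears on cutaneous squamous cell carcinoma. The study reported that the K5 and K14 tumours did not cluster by model and found no genes differentially expressed between them. It merged them into 1 basal group, and the values below describe that comparison. All 9 tumours were from female mice and were labelled as squamous cell carcinoma, with the genotypes K5:BRAFV600E and K14:BRAFV600E. The allele was induced between 7 and 20 weeks of age per the labels, by a tamoxifen-inducible Cre that, per the study's methods, was switched on by 4-hydroxytamoxifen painted on the shaved back. The fit also held 6 tumours of female Ivl:BRAFV600E mice, in which Cre follows the promoter of a differentiation gene, and 4 samples of skin from female wild-type mice. Both basal promoters are active throughout the basal layer and in the outer cells of the hair follicle, so neither marks a single cell type. The study describes a lone tumour per mouse in these basal models, on the treated skin of the back, while the labels link no library to a mouse or body site. P-values measure the spread between these samples, and in whole-tumour RNA fewer cells of a type cannot be told apart from less RNA per cell.

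Keratin 5 and keratin 14 are partners that pair into the filaments of basal keratinocytes, and cells that leave the basal layer stop making both and start to make cornified envelope proteins such as involucrin. BRAF with the V600E change signals without RAS and drives MEK and ERK, which switch on immediate early genes, AP-1 transcription factors, EGF family ligands and the phosphatases and adaptors that dampen the pathway. HOX genes stand in 4 chromosomal clusters, their order along the chromosome follows the body axis along which they are active, and skin cells keep part of that pattern in the adult.

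The total count of the 9 tumours lay between 46469682 and 72609771. K5 tumour 1 held the highest total, with 57200359 the next, and had 6623 genes at 0, against 8034 to 10882 in the other 8 tumours. K5 tumour 1 also stood with Ivl tumours 1, 2 and 3: in 96.6% of 13954 genes the mean CPM (counts scaled for library size) of those 4 libraries differed by under 0.1 log2 from that of the remaining 15, against 43.8% to 59.1% with any other K5 or K14 tumour in its place. The labels do not give the sequencing batch that the authors adjusted for. The study describes 2 batches, of 4 and 15 samples, sequenced at different times, and does not name their members. The sizes match this split, but whether these 4 libraries were that batch is not stated. K14 tumour 1 stood apart as well, with the highest levels of hair follicle, skeletal muscle and sebaceous gland genes among the 9. The comparison was therefore made with all 19 libraries and checked in a reduced set of 15 libraries, in which K5 tumours 2 to 5 were set against the 4 K14 tumours and Ivl tumours 1, 2 and 3 were left out too, and counts without single tumours are given for lists that they moved. Keratinocyte genes summed to a higher level in every tumour than in any skin sample. The summed level of 13 basal keratinocyte genes was 45352 to 72243 CPM, against 5002 to 10707 CPM in skin, and that of 19 differentiation genes was 19195 to 58331 CPM, against 4238 to 8361 CPM. Over 14629 genes, the correlation of log2 CPM was 0.891 to 0.979 (median 0.952) in the 20 pairs of a K5 with a K14 tumour and 0.907 to 0.991 (median 0.955) in the 16 pairs of the same genotype.

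Over all 19 libraries, no gene passed an adjusted p of 0.05 among 32031 tested (0%, edgeR's quasi-likelihood test with Benjamini-Hochberg adjustment, smallest adjusted p 0.247). At an unadjusted p under 0.05, 1945 genes (6.07%) were counted, 815 of them higher in K5 tumours (2.54%) and 1130 lower (3.53%). The values of the groups did not overlap in 1423 genes (4.44%). DESeq2 counted 2041 genes at an unadjusted p under 0.05 (6.39%) and called 199 of 20192 (0.986%), 65 higher (0.322%) and 134 lower (0.664%), and 93 of the 134 were at their highest in K14 tumour 1, 53 of the 134 being keratin or keratin-associated protein genes. These DESeq2 calls differ from the study, which found no differentially expressed gene between the same tumours with DESeq2 and states no cutoff for that comparison. The cause of the difference was not tested. Within the 15 libraries, 17 of 31971 genes passed the adjusted threshold (0.0532%), 7 of which were higher in K5 tumours (0.0219%) and 10 lower (0.0313%). There 3231 genes had an unadjusted p under 0.05 (10.1%), 1418 higher (4.44%) and 1813 lower (5.67%), and DESeq2 called 534 of 21389 genes (2.5%), 257 higher (1.2%) and 277 lower (1.3%). On simulated counts with the sizes and estimated spread of these libraries, the test over all 19 libraries recovered 39.4% of 66 genes changed by 1 on the log2 scale, 73.1% of 67 changed by 2 and 92.5% of 67 changed by 3. The changed genes were drawn from those with a mean of at least 1 CPM.

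The 4 genes that define the mouse models came first. Krt5 was at 5394, 6922, 6072, 6318 and 6176 CPM in K5 tumours 1 to 5 and at 9453, 9574, 11405 and 10066 CPM in K14 tumours 1 to 4. Every K5 tumour lay below every K14 tumour, by −0.71 on the log2 scale (exact permutation test, two-sided, p = 0.00794, the smallest that 126 arrangements allow; 0.0159 after adjustment over the 4 genes). Ivl, the involucrin gene, was at 1784, 1819, 956, 985 and 1675 CPM in K5 tumours and at 381, 362, 605 and 865 CPM in K14 tumours. It was higher in every K5 tumour, by 1.42 (exact permutation p = 0.00794, adjusted 0.0159). The list of 19 differentiation genes, to which Ivl belongs, did not follow it. Over all 19 libraries 6 of them had a positive log2 difference, and the median was −0.11. At an unadjusted p under 0.05 in edgeR, 1 was higher and 1 lower (background 2.54% and 3.53% of genes). Braf, mutant and wild-type transcripts together, was at 24.1, 34.4, 36.2, 37.6 and 40.0 CPM against 41.3, 45.9, 43.1 and 41.2 CPM, lower in every K5 tumour by −0.33 (exact permutation p = 0.0159, adjusted 0.0212). Krt14 was at 33079.7 to 46566 CPM against 32943 to 51084 CPM, and the groups overlapped (log2 difference −0.11, exact permutation p = 0.476). Without K5 tumour 1 the differences of Krt5, Ivl and Braf were −0.67, 1.33 and −0.21, each with an adjusted exact p of 0.0381. In the edgeR fit across all genes none of these 4 passed the adjusted threshold, whereas DESeq2 called Krt5 and Ivl within the 15 libraries (DESeq2 adjusted p = 0.044 and 0.004) and neither over all 19.

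In a principal component analysis of the 500 most variable genes, the first component held 56.0% of the variance and did not separate the groups (difference of mean scores −20.4, exact permutation p = 0.627). It was led by K14 tumour 1, with a score of 92.7, and of the 50 genes with the largest loadings 8 were on the skeletal muscle list and 10 on the hair follicle list. By name, 14 of the 50 were keratin or keratin-associated protein genes, a class that shares members with the hair follicle list. The second component held 18.7%, and the K5 tumours scored 30.7 higher on average (exact permutation p = 0.0397; 36.5 higher without K5 tumour 1, exact permutation p = 0.0286; 48.9 higher with the 5000 most variable genes, exact permutation p = 0.0794). K5 tumours 3 and 4 were far above the rest, at 36.7 and 41.8, K5 tumours 2 and 5 were at 1.78 and −2.03, and K5 tumour 1 was at −10.0, next to K14 tumour 4 at −10.3. HOX genes made up 9 of the 50 leading genes of that component, and hair follicle genes 9.

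**Figure D1:**
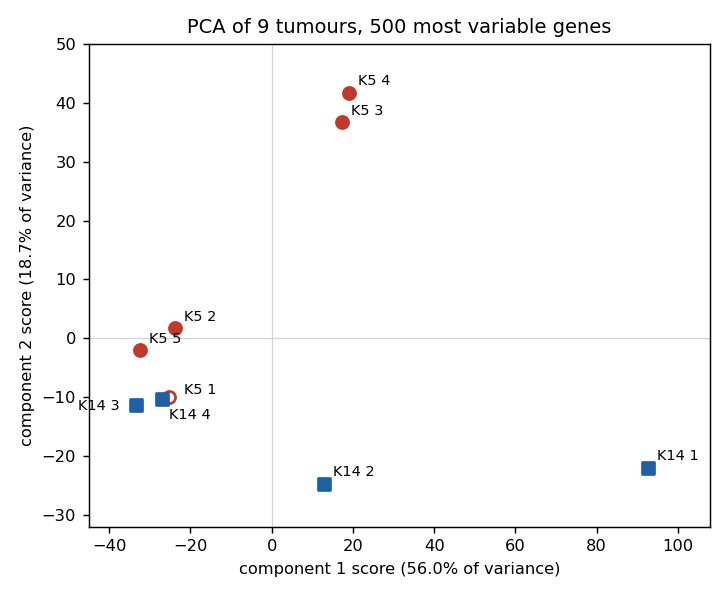
Scores of the 9 tumours on the first 2 principal components (x axis 56.0%, y axis 18.7% of the variance; log2 CPM of the 500 most variable genes). K14 tumour 1 lies alone on the right, K5 tumours 3 and 4 lie at the top, K14 tumour 2 lies lowest and right of 0, and the other 5 tumours lie on the left.

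Of the 17 genes called within the 15 libraries, 4 were HOX genes, and all 17 had values that did not overlap between K5 tumours 2 to 5 and the K14 tumours (background 7.15% of genes). The 17 were selected by their difference between these same tumours, so their lack of overlap adds no separate evidence. With K5 tumour 1 added, 10 of the 17 still did not overlap and 16 kept their sign. Esr1, which encodes the oestrogen receptor alpha, was at 2.33, 2.1, 2.68 and 1.81 CPM in K5 tumours 2 to 5 and at 30.2, 42.9, 110.1 and 114 CPM in K14 tumours 1 to 4. It was at 12.7 CPM in K5 tumour 1, above the other K5 tumours and below every K14 tumour. Skin held 16.3 to 40.6 CPM and the Ivl tumours 4.29 to 109.5 CPM. Esr1 was lower in the K5 tumours by −5.06 ± 0.48 on the log2 scale (SE; edgeR adjusted p = 0.0011), and over all 19 libraries the difference was −4.09 ± 1.04 (edgeR unadjusted p = 0.0011, adjusted 0.59). With Hoxa9 it was 1 of the 2 genes called in each of the 8 fits that left out 1 tumour. Gm42819 was called in 7 of those fits, Hoxb8 in 6, Tnfrsf12a in 2, Gtf2e2, Tfrc, Hoxb9, Sp9 and Cxcl1 in 1 each and the other 7 in 0. The number of calls was 2 without K5 tumour 2, 5 without K5 tumour 3, 4 without K5 tumour 4 and 8 without K5 tumour 5, and it was 4, 6, 7 and 7 without K14 tumours 1, 2, 3 and 4.

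Mab21l3, of the mab-21-like family, was at 9.91, 8.38, 9.64, 8.0 and 9.22 CPM in the 5 K5 tumours and at 22.1, 32.5, 21.3 and 21.6 CPM in the 4 K14 tumours. Its K5 values lay close together, K5 tumour 1 included, and all lay below the K14 values. It was lower by −1.47 ± 0.24 on the log2 scale within the 15 libraries (edgeR adjusted p = 0.046) and by −1.43 ± 0.25 over all 19 libraries, where its edgeR adjusted p was 0.25. Foxn3, a forkhead transcription factor linked to cell cycle checkpoints, was at 38.6, 36.3, 38.6 and 42.5 CPM in K5 tumours 2 to 5 against 59.2, 62.6, 56.4 and 56.9 CPM, lower by −0.59 ± 0.09 (edgeR adjusted p = 0.042). K5 tumour 1 held 115 CPM, above every K14 tumour, so the groups overlapped once it was included. The other 3 genes that were lower, Gm42819, Gm26574 and Gm48139, are predicted genes with at most 0.503, 0.438 and 0.369 CPM in any K14 tumour and at most 1 count in any of K5 tumours 2 to 5. Gm26574 overlaps exons of Ptpn14 on the opposite strand, and since the use of strand in counting is not stated, reads of the 2 cannot be told apart.

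Among the 7 that were higher, Tnfrsf12a encodes Fn14, the receptor of the cytokine TWEAK, and was at 109.7, 125, 134, 147 and 138 CPM in the K5 tumours and 59.6, 58.2, 85.4 and 81 CPM in the K14 tumours. The groups were apart with K5 tumour 1 included, and the log2 difference was 0.94 ± 0.13 within the 15 libraries (edgeR adjusted p = 0.025). Cxcl1, a chemokine that draws neutrophils, was at 12.7, 47.6, 29.4, 33.5 and 59.6 CPM against 8.12, 2.56, 10.1 and 11.2 CPM. The lowest K5 value, that of tumour 1, was just above the highest K14 value, and the log2 difference was 2.41 ± 0.39 (edgeR adjusted p = 0.046), with 0.646 to 1.11 CPM in skin. Tfrc, the transferrin receptor that brings iron into cells, was at 74.2, 151, 99.3, 137 and 147 CPM against 63.4, 47.2, 71 and 74.5 CPM (1.06 ± 0.17, edgeR adjusted p = 0.042). K5 tumour 1 lay between K14 tumours 3 and 4 in this gene, and the other K5 tumours lay above every K14 tumour.

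Sp9, a zinc-finger transcription factor known from limb buds and the forebrain, was at 0.286, 3.22, 1.83, 2.17 and 0.605 CPM in the K5 tumours and at 0.0402, 0.0461, 0.0719 and 0.0417 CPM in the K14 tumours. It was low in both groups and did not overlap between them (5.24 ± 0.85, edgeR adjusted p = 0.046). Its exons overlap those of Cir1 on the other strand. Gtf2e2, the small subunit of the general transcription factor IIE, was at 73.1, 68.3, 71.8, 70.1 and 86.3 CPM against 40.2, 39.2, 52.3 and 49.6 CPM (0.71 ± 0.11, edgeR adjusted p = 0.042), and all 5 K5 values were above all 4 K14 values. Nradd, a death-domain protein related to the p75 neurotrophin receptor, was at 28.8 to 34.6 CPM in K5 tumours 2 to 5 and 17.3 to 20.3 CPM in K14 tumours. It was at 22.1 CPM in K5 tumour 1, above every K14 tumour.

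**Figure D2:**
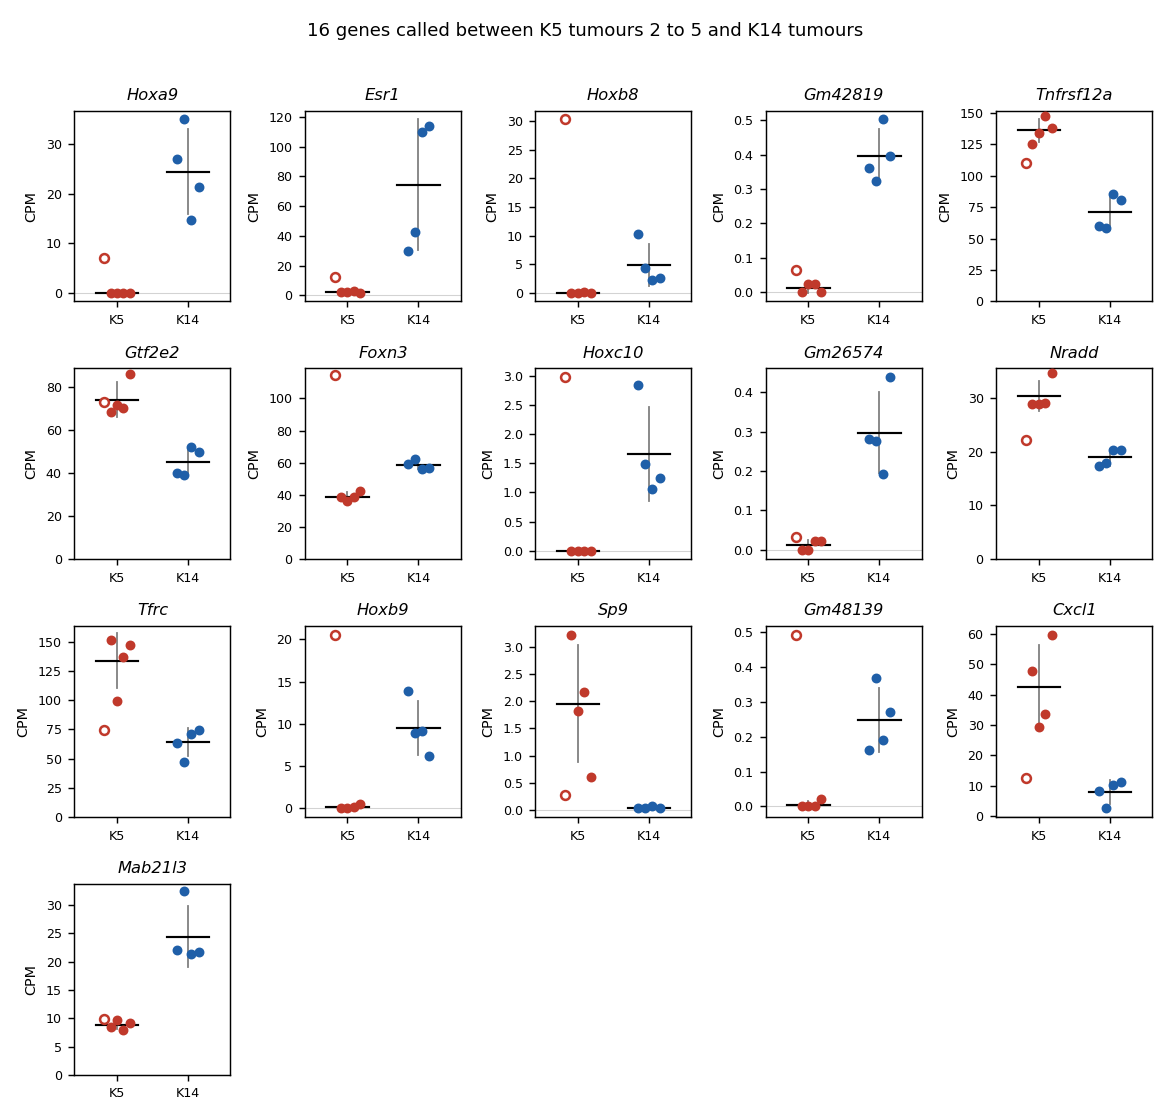
CPM (y axis, linear, 1 panel a gene) of 16 genes called within the 15 libraries in each K5 and K14 tumour (x axis); lines and bars are the mean ± SD of K5 tumours 2 to 5 and of the 4 K14 tumours, and the open marker is K5 tumour 1. Filled markers of the 2 groups do not overlap in any gene, whereas the open marker lies among or beyond the K14 values in 6 of the 16, as in Foxn3 and Hoxb8.

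In the HOX genes K5 tumours 2 to 5 lay far below the K14 tumours, and K5 tumour 1 did not follow them. Hoxa9, on chromosome 6 at 52223100 to 52231089 (GRCm38, minus strand), was at 27, 35, 14.6 and 21.3 CPM in the K14 tumours, at 1 count in each of K5 tumours 2 to 5, and at 6.96 CPM in K5 tumour 1. All K14 tumours were above K5 tumour 1, which was far above the other K5 tumours. Without K5 tumour 1 its level was at least 351-fold lower in the K5 tumours, set against a floor of 3 counts per library (edgeR adjusted p = 0.00017). Over all 19 libraries the log2 difference was −4.09 ± 2.22 (edgeR unadjusted p = 0.083), and skin held 0.141 to 0.978 CPM. The Ivl tumours held 0 to 35.5 CPM of Hoxa9, with a median of 0.00992 CPM. Its exons overlap the microRNA gene Mir196b on the same strand.

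Hoxb8 was at 10.2, 4.4, 2.16 and 2.61 CPM in the K14 tumours and at 1 to 3 counts in K5 tumours 2 to 5, at least 69.7-fold lower (edgeR adjusted p = 0.0086). K5 tumour 1 held 30.3 CPM, the highest value of the 9, and over all 19 libraries the log2 difference was 0.33 ± 1.89. Hoxc10 was at 0 counts in K5 tumours 2 to 5 and at 2.86, 1.5, 1.05 and 1.25 CPM in the K14 tumours (at least 23.9-fold lower, edgeR adjusted p = 0.042), with 2.99 CPM in K5 tumour 1. Hoxc10 shares exon sequence on the same strand with the annotated Hoxc5, so its counts are uncertain. Hoxb9 was at 0.0253, 0.0226, 0.187 and 0.454 CPM in K5 tumours 2 to 5 and at 13.9, 8.85, 9.08 and 6.18 CPM in the K14 tumours (−5.75 ± 0.90, edgeR adjusted p = 0.046), and again K5 tumour 1, at 20.5 CPM, was above them all. Hoxa7 was at 47.1, 41.2, 38.8 and 45.2 CPM in the K14 tumours, 44.1 CPM in K5 tumour 1, and 0.177, 0.339, 0.28 and 0.756 CPM in K5 tumours 2 to 5. It passed the adjusted threshold with DESeq2 (adjusted p = 4.5e-07) but not with edgeR (adjusted p = 0.12).

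Of 37 HOX genes in the table, 35 were tested within the 15 libraries. At an unadjusted p under 0.05, 13 were lower in K5 tumours 2 to 5 and 0 higher (background 5.67% and 4.44% of genes), and the median log2 difference was −0.78, with 0.00 over all genes. In 13 the K5 values lay below the K14 values without overlap (background 3.71%), and in 0 above them (background 3.45%). The 13 were Hoxa5, Hoxa6, Hoxa7, Hoxa9, Hoxa10, Hoxa11, Hoxb6, Hoxb7, Hoxb8, Hoxb9, Hoxc9, Hoxc10 and Hoxc11. Their highest level in any of K5 tumours 2 to 5 was 6.02 CPM, in Hoxa5. DESeq2 called 10 HOX genes there, all lower (background 1.3% of genes), all of the 13 except Hoxa5, Hoxa11 and Hoxc11. Without K14 tumour 1, 11 were lower in edgeR's test, with a median of −0.31. The members divided by position within their clusters, a division made after the values were seen. In paralogue groups 1 to 4, 0 of 12 tested genes were lower (median 0.05), whereas in groups 5 to 13 of clusters A, B and C it was 13 of 19 (median −4.97). In groups 5 to 13 of cluster D, 0 of 4 were lower (median −0.26), and Hoxd8 was at 21.9, 8.38, 10.9, 13.5 and 8.6 CPM in the K5 tumours and 11.4, 7.4, 7.43 and 6.95 CPM in the K14 tumours.

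K5 tumour 1 was above every other K5 tumour in 12 of those 13 genes, at or above the lowest K14 tumour in 9 and above the highest in 7. Over all 19 libraries only 2 HOX genes, Hoxa11 and Hoxc11, had an unadjusted p under 0.05 (both lower in K5 tumours, background 3.53%). The median log2 difference was 0.05. In 4 the K5 values lay below the K14 values without overlap (background 2.4%), and in 0 above them (background 2.04%). The summed HOX level was 362, 23.5, 37.6, 64.2 and 46.5 CPM in K5 tumours 1 to 5 and 197, 154, 115 and 127 CPM in K14 tumours 1 to 4. Skin held 159 to 298 CPM. The Ivl tumours held 14.4 to 264 CPM (median 47.0), so low sums were not particular to K5 tumours 2 to 5. Of 34 other position factors, 2 were higher in K5 tumours over all 19 libraries (Lmx1b and Lhx8, both known from limb or jaw patterning) and 1 lower (Meis2, a HOX cofactor). These counts are at an unadjusted p under 0.05 (background 2.54% and 3.53%). The 2 higher genes became 0 without K14 tumour 2, 3 or 4. Within the 15 libraries DESeq2 called Lmx1b, higher, and Meis2, lower (background 1.2% and 1.3% of genes). Meis2 was at 5.73, 4.66, 6.73, 6.79 and 5.55 CPM in the K5 tumours and 12.5, 12.7, 7.98 and 11.2 CPM in the K14 tumours, with no overlap (−0.91 ± 0.34, edgeR unadjusted p = 0.014).

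**Figure D3:**
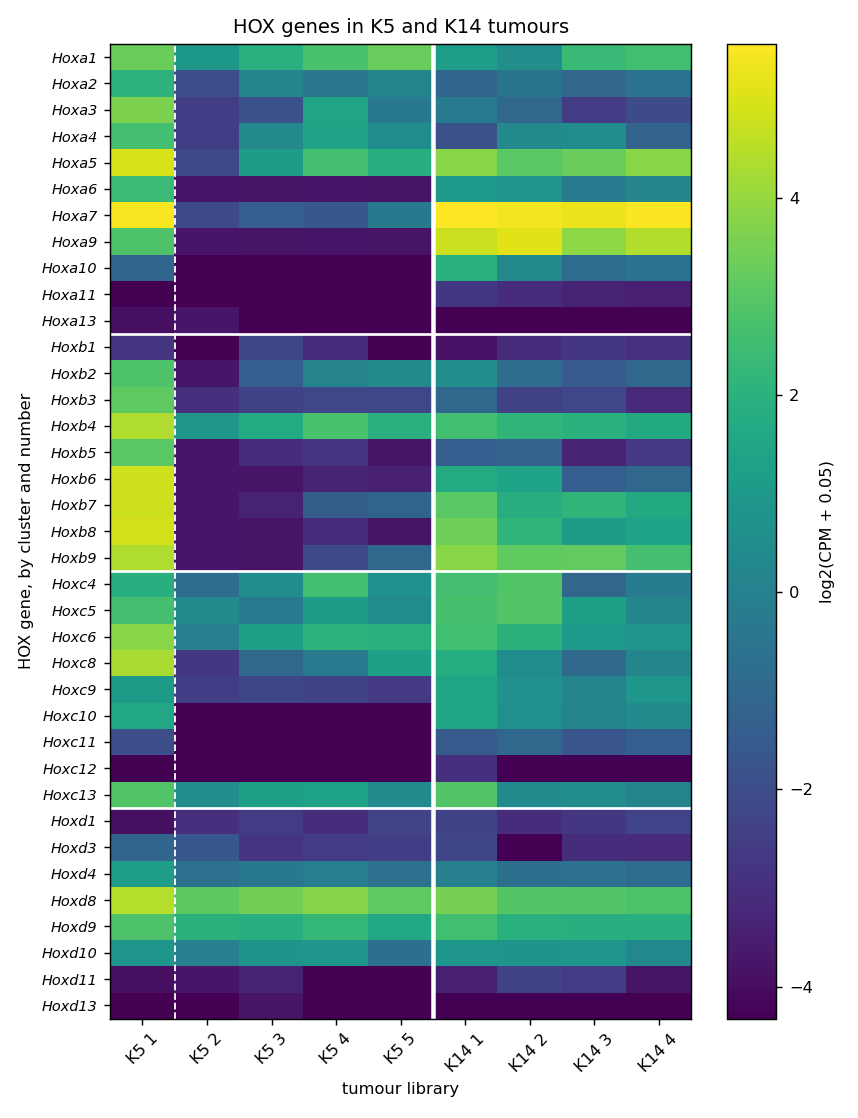
Level of each HOX gene (y axis, by cluster and number) in each of the 9 tumours (x axis), coloured by log2(CPM + 0.05). K5 tumours 2 to 5 are darker than the K14 tumours from Hoxa5 to Hoxa10, Hoxb6 to Hoxb9 and Hoxc9 to Hoxc11, K5 tumour 1 is lighter than them in 12 of the 13 genes named above, and the D cluster shows no such step.

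Over all 19 libraries, 128 protein-coding genes had values that did not overlap and an absolute log2 difference over 1, of which 54 were higher in K5 tumours. None passed edgeR's adjusted threshold with all 4 groups in the fit. DESeq2 called 22 of the higher genes and 14 of the lower ones, and edgeR called Mab21l3 and Sox21 when only the K5 and K14 tumours were fitted. The 128 were selected by their difference between these same tumours. Their lack of overlap and these calls therefore add no separate evidence. The 8 in each direction with the smallest p began, on the higher side, with Rab20, a small GTPase of membrane traffic (8.38 to 9.91 CPM in the K5 tumours, 2.6 to 4.49 CPM in the K14 tumours, log2 difference 1.24 ± 0.21, edgeR unadjusted p = 1.5e-05), whose exons overlap E230013L22Rik on the opposite strand.

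Dusp6, the phosphatase that removes the activating phosphates from ERK, was at 273, 320.1, 233, 242 and 279.7 CPM in the K5 tumours and 139.5, 43.9, 73.9 and 121 CPM in the K14 tumours. The lowest K5 value was above the highest K14 value, and the log2 difference was 1.51 ± 0.31 (edgeR unadjusted p = 0.0001, adjusted 0.5). Errfi1, which encodes MIG6, an inhibitor of the EGF receptor, was at 192, 205, 161, 152 and 292 against 71.6, 68.8, 107 and 104 CPM (1.19 ± 0.28). Nr4a1, an immediate early nuclear receptor, was at 26.6, 87.1, 25, 32.3 and 104 against 16.2, 5.99, 8.58 and 10.1 CPM (2.43 ± 0.54), with K5 tumours 2 and 5 the highest. Rgs2, a brake on G protein signalling, was at 27.5, 35.2, 25.4, 30.1 and 40.2 against 15.3, 7.77, 12.6 and 11.5 CPM (1.43 ± 0.32). Ccn1, a secreted matrix protein of the immediate early response, was at 151, 146, 124, 162 and 307 against 59.8, 17.8, 59.6 and 56.3 CPM (1.88 ± 0.46), and K5 tumour 5 was the highest and K14 tumour 2 the lowest by a wide margin. Zfp941, a zinc-finger gene, and Sp9 made up the 8. All 8 passed the adjusted threshold with DESeq2 over all 19 libraries (DESeq2 adjusted p = 0.00042 for Dusp6 and 0.009 for Errfi1), and with edgeR Nr4a1 did so within the 15 libraries when genes with a mean under 1 CPM, or K5 tumour 3, were left out. These calls come from the tumours by which the 8 were selected, so they add no separate evidence. Zfp941, which overlaps Gm45785 on the same strand, lay at 1.91 to 6.13 CPM against 0.862 to 1.5 CPM.

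The 8 that were lower held 2 transcription factors of epithelia after Mab21l3. Foxq1, a forkhead factor known from the hair shaft, was at 8.91, 3.92, 12.8, 11.4 and 11.8 CPM in the K5 tumours and 29.6, 26.3, 29.1 and 26.2 CPM in the K14 tumours (−1.51 ± 0.31, edgeR unadjusted p = 0.0001). Sox21, also known from hair shaft differentiation, was at 11.3, 18.3, 17.2, 15.1 and 15.6 against 43.5, 40.8, 35.6 and 37.8 CPM (−1.35 ± 0.29, edgeR unadjusted p = 0.00015). The K14 values of both lay within a narrow range, and K14 tumour 1, with its high hair follicle genes, did not stand out. Sh3rf2, a scaffold that restrains JNK signalling, was at 9.64 to 34.5 against 37.3 to 67.8 CPM, Kcnk4, a potassium channel, at 2.58 to 3.73 against 5.74 to 16 CPM, and Frat1, an inhibitor of GSK3, at 1.73 to 2.64 against 3.35 to 6.31 CPM. Kctd14 and Cdh18 were at most 1.17 and 0.181 CPM in any tumour, and Cdh18 was at 0 in every K5 tumour. Foxq1 and Sox21 overlap transcripts on the opposite strand, and Kcnk4 overlaps Catsperz on the same strand, so these 3 are uncertain. DESeq2 called 7 of the 8 over all 19 libraries and gave no adjusted p for Cdh18. As on the higher side, these calls add no separate evidence.

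The pathway that the oncogene drives was then read from 4 lists, the RAS to ERK cascade itself, its transcriptional output, AP-1 factors and the EGF receptor family. Of 19 genes of the cascade, 0 were higher and 0 lower at an unadjusted p under 0.05 over all 19 libraries (median log2 difference 0.15). Members of all further lists are counted at that threshold too. Of 17 genes of MAPK output, 9 were higher and 0 lower (background 2.54% and 3.53% of genes, median 0.55), and within the 15 libraries it was again 9 and 0, with a median of 0.66. None of these passed edgeR's adjusted threshold, while DESeq2 called Dusp6 over all 19 libraries and Dusp6, Fosl1 and Ier3 within the 15 (background 0.322% and 1.2% of genes higher). Besides Dusp6, the 9 were Dusp5 and Spry4, which also dampen the pathway, the immediate early factor Egr1, Ier3 and Phlda1, which respond to growth factors, the AP-1 subunit Fosl1, the ephrin receptor Epha2, and Spry1, a relative of Spry4. Spry4 was at 18.3, 6.94, 9.08, 11.4 and 26.9 CPM against 3.92, 2.28, 6.47 and 9.69 CPM (1.38 ± 0.47, edgeR unadjusted p = 0.0085), with overlap at K5 tumours 2 and 3. Ier3 was at 258, 243, 187, 189.8 and 297 against 85.2, 86.5, 162 and 139 CPM (0.99 ± 0.27, edgeR unadjusted p = 0.0014), with none. Without K14 tumour 1, within the 15 libraries, 8 of the 17 were higher (median 0.54).

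Of 9 AP-1 factors, 4 were higher and 0 lower (background 2.54% and 3.53%, median 0.41). The 4 became 1 without K5 tumour 5 and 2 without K14 tumour 2. Fos was at 139, 177, 70.3, 99.2 and 257 CPM in the K5 tumours and 39.6, 11.2, 45.5 and 58.1 CPM in the K14 tumours, without overlap (1.94 ± 0.55, edgeR unadjusted p = 0.0025). Fosb was at 3.03, 14.1, 3.75, 5.13 and 61.6 against 6.01, 0.576, 1.37 and 1.42 CPM, where K5 tumour 5 was far above the rest and K14 tumour 1 lay above 3 K5 tumours. Junb was at 604 to 812 against 285 to 590.3 CPM, without overlap, and Atf3, a stress-induced factor, at 2.8 to 20.3 against 0.277 to 4.43 CPM, with overlap. Junb overlaps Prdx2 and Fosl1 overlaps Ccdc85b on the opposite strand.

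Of the 12 EGF receptor ligands and receptors, 6 were higher and 2 lower (background 2.54% and 3.53%, median 0.92), and the 6 were all ligands. Within the 15 libraries it was 5 and 2 (background 4.44% and 5.67%, median 0.78). The 6 became 3 without K14 tumour 2 and 4 without K14 tumour 1 or without K5 tumour 1. Areg, amphiregulin, was at 191, 167, 100.4, 164 and 284 CPM in the K5 tumours and 20.5, 13.6, 46.7 and 70.1 CPM in the K14 tumours. Epgn, epigen, was at 390.2, 276, 231, 193 and 1009 CPM against 38.7, 42.4, 123 and 131 CPM. In both ligands every K5 tumour lay above every K14 tumour and K5 tumour 5 was the highest (log2 differences 2.26 ± 0.63 and 2.32 ± 0.70, edgeR unadjusted p = 0.0022 and 0.0038). Hbegf lay at 232 to 373 against 78.8 to 215 CPM, without overlap, and Ereg, Tgfa and Btc, the genes of epiregulin, transforming growth factor alpha and betacellulin, differed by 1.55, 0.81 and 1.13 with overlap. Egf went the other way at a low level, 0.254 to 0.768 against 1.08 to 1.75 CPM (−1.46 ± 0.56). Erbb3, a receptor that pairs with ERBB2, was at 84.4, 76, 86.6, 89.6 and 111 CPM in the K5 tumours and 119, 132, 132 and 141 CPM in the K14 tumours, lower in every K5 tumour (−0.55 ± 0.17, edgeR unadjusted p = 0.004). Egfr and Erbb2 differed by −0.06 and −0.15.

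Over these 3 lists of 38 genes, 19 were higher and 2 lower at an unadjusted p under 0.05 (background 2.54% and 3.53%). Without overlap, 11 were higher and 2 lower (background 2.04% and 2.4%), and edgeR called 0. DESeq2 called Areg, Dusp6, Epgn and Fos over all 19 libraries (DESeq2 adjusted p = 0.015, 0.00042, 0.029 and 0.025), and within the 15 libraries 8 that were higher and Erbb3, which was lower. Of the 19, 15 had their highest value in K5 tumour 5 and 15 their lowest in K14 tumour 2. Refitted without K5 tumour 5 the count of higher genes was 13, without K14 tumour 2 it was 11 and without K5 tumour 1 it was 16.

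**Figure D4:**
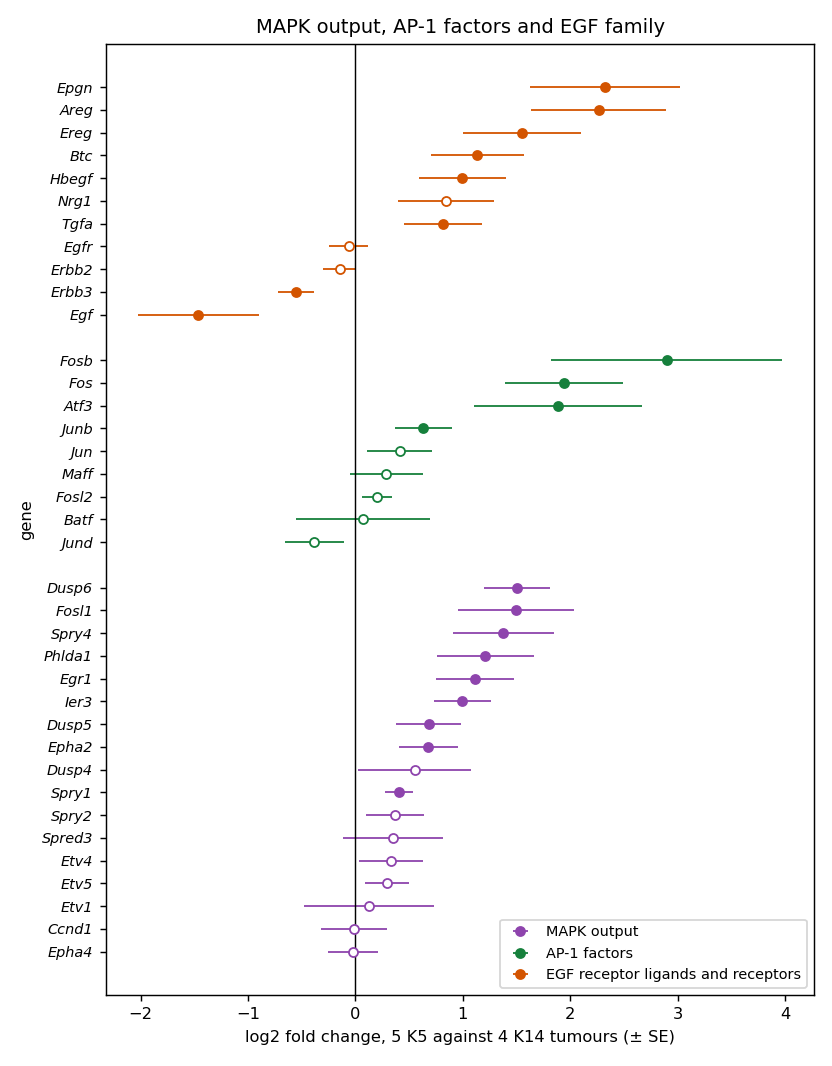
Log2 difference of K5 minus K14 tumours (± SE, all 19 libraries) for the genes of MAPK output, the AP-1 factors and the EGF receptor family; filled markers have an unadjusted p under 0.05. Most markers lie right of 0 (higher in K5 tumours), and Egf and Erbb3 are the filled markers on the left.

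The EGF family ligand genes Areg, Ereg, Epgn and Btc are neighbours on chromosome 5, next to Cxcl1. Within 500 kb of the start of Areg (chr5:90639599-91639599, GRCm38), a window chosen after the values were seen, 12 genes had a mean of at least 1 CPM over the 9 tumours. Of these, 7 were higher in K5 tumours at an unadjusted p under 0.05 over all 19 libraries and 0 lower (background 2.54% and 3.53%): Cxcl1, Mthfd2l, Epgn, Gm19610, Ereg, Areg and Btc. Within the 15 libraries it was 6 and 0. Over all 19 it was 5 without K5 tumour 1, K5 tumour 5 or K14 tumour 2, and within the 15 it was 4 without K5 tumour 5 or K14 tumour 1. Gm19610 lies antisense to Ereg, so their reads cannot be told apart.

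Promoters are shown for 5 of these genes, since Fos and Areg are known targets of CREB, which binds the cAMP response element (CRE). The sequences are those of RefSeq on GRCm38.p6, 250 bases before to 50 after the start, 5′ to 3′ on the strand of the gene, and capitals mark the match. Areg (chr5:91139349-91139648, plus strand), Errfi1 (chr4:150854820-150855119, plus strand), Ccn1 (chr3:145649936-145650235, minus strand) and Fos (chr12:85473640-85473939, plus strand) hold the CRE half-site TGACGT on either strand, and Cxcl1 (chr5:90890995-90891294, plus strand) holds the consensus motif of NF-kappaB at 2 places, besides a CRE half-site left in lower case.
Areg: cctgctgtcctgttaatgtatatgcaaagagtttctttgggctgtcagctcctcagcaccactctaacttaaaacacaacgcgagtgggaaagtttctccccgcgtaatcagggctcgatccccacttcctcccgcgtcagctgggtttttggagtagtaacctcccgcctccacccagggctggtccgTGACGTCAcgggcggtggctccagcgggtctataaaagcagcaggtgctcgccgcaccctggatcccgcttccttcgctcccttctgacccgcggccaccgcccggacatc
Errfi1: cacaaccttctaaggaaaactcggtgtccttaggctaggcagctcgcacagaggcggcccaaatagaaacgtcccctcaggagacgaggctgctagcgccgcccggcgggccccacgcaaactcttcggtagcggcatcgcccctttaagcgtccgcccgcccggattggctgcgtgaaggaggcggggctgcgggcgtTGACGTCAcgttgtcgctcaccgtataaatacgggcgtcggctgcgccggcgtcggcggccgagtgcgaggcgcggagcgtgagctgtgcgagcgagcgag
Ccn1: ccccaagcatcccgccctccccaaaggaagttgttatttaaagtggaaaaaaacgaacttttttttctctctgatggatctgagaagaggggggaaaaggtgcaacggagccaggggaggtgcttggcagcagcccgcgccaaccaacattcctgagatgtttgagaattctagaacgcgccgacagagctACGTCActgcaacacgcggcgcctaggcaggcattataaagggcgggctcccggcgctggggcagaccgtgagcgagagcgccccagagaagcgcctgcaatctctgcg
Fos: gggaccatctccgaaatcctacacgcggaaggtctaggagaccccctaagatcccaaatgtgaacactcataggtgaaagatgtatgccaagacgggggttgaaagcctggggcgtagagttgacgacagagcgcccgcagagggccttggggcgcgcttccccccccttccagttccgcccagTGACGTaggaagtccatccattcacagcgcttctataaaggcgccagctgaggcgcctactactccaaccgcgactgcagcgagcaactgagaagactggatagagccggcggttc
Cxcl1: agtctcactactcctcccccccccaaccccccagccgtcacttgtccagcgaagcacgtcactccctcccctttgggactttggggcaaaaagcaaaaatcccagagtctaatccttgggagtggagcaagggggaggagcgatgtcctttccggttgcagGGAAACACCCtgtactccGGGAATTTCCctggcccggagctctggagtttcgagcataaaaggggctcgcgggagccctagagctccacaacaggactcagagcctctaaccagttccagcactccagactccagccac
In Areg and Errfi1 the match is the full palindrome TGACGTCA, which contains the half-site on both strands. Searched on both strands, TGACGT was found in 7.51% of 32851 promoters (8.37% of 27025 genes) and TGACGTCA in 1.79% of promoters. Among the 20311 promoters of genes tested the shares were 9.24% (10.7% of 16202 genes) and 2.41%. Of the 8 named genes higher in K5 tumours, 3 held TGACGT (Ccn1, Errfi1 and Rgs2), and of the 5 lower ones with a promoter listed, Frat1 did. Of the 19 higher members of the 3 lists, 13 had a promoter in the table and 5 of these held it (Areg, Atf3, Dusp5, Epha2 and Fos), or 38.5%, against 8 of all 27 members with a promoter listed, or 29.6%. The AP-1 motif TGANTCA, in 7.81% of all promoters, was found in none of these genes. The ETS motif CCGGAAG, in 8.86%, was found in Sox21 and in none of the 13 higher list members with a promoter. Among all 27 list members, Batf, Egf and Egfr held it. The NF-kappaB motif, in 1.63%, was found in Dusp5 and Cxcl1. A match describes the letters of the window and was not tested as a binding site.

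Cytokine and wound genes were read in the same way. Of 19 genes of the STAT3 and IL-6 response, 3 were higher and 1 lower over all 19 libraries (background 2.54% and 3.53%, median 0.37). DESeq2 called Lif there (adjusted p = 0.031). Lif, leukaemia inhibitory factor, was at 3.84, 9.47, 5.44, 5.39 and 12.2 CPM in the K5 tumours and 4.06, 1.91, 2.18 and 3.17 CPM in the K14 tumours, with K5 tumour 1 inside the K14 range (1.36 ± 0.38, edgeR unadjusted p = 0.0019). Bcl3, an atypical IkappaB protein, was at 54.2 to 70.4 against 30.8 to 42.7 CPM, without overlap (0.78 ± 0.29). Of 13 interleukin-1 family genes 2 were higher, and 0 without K5 tumour 2, K14 tumour 1 or K14 tumour 2. Of 7 neutrophil chemokines Cxcl1 alone was higher. The 18 neutrophil marker genes summed to 2864 to 6718 CPM in the K5 tumours and 1685 to 4480.1 CPM in the K14 tumours, with 0 higher and 1 lower. Of the wound keratins Krt6a, Krt6b, Krt16, Krt17 and Krt75, 0 were higher and 0 lower (median −0.16), Krt6a and Krt6b being near-identical copies whose reads may be split. Of 18 proliferation genes 0 were higher and 0 lower (median −0.15), as of 14 hypoxia and glycolysis genes (median 0.13) and 15 matrix metalloproteinase genes and their regulators (median 0.47).

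Of 28 Wnt genes, 0 were higher and 2 lower over all 19 libraries (background 2.54% and 3.53% of genes), Wnt4 and Wnt16. Wnt4, a ligand of basal keratinocytes, was at 67.4, 91.3, 124, 124 and 88.1 CPM in the K5 tumours and 148, 170.0, 229 and 167 CPM in the K14 tumours, lower in every K5 tumour (−0.85 ± 0.25, edgeR unadjusted p = 0.0034). Wnt16 overlapped (−1.59 ± 0.50). Within the 15 libraries 1 Wnt gene was higher and 5 were lower (background 4.44% and 5.67%, median −0.27). When 1 tumour was left out there, 3 to 5 were lower. DESeq2 called Wnt4 within the 15 libraries, as lower (background 1.3%). Of 13 basal keratinocyte genes 1 was higher (Itga3) and 1 lower (Krt5), and Itga3 did not pass without K5 tumour 4, K14 tumour 1 or K14 tumour 2. Itga3, the laminin-binding integrin alpha 3, was at 469, 363, 388, 534 and 409.8 against 168, 174, 334 and 323 CPM (0.79 ± 0.32, edgeR unadjusted p = 0.023). Of the 12 factors that the study follows in its tumours, which include Sox2, Sox9, Pitx1 and Trp63, 0 were higher and 0 lower. Sox2 was at 0.127, 0.152, 0.722, 1.45 and 0.972 CPM in the K5 tumours and 0.804, 0.922, 1.01 and 0.939 CPM in the K14 tumours, and Pitx1, which K5 tumour 1 held at 6.29 CPM, lay at 56.1 to 90.2 CPM in the other K5 tumours and 50.5 to 78.5 CPM in the K14 tumours.

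The hair follicle list gave the largest count of lower genes, and it rested on 1 tumour. Of 26 genes 15 were lower in K5 tumours over all 19 libraries and 0 higher (background 3.53% and 2.54% of genes, median −5.55). Within the 15 libraries these genes gave the same counts (background 5.67% and 4.44%, median −5.49). Their summed level was 2541, 342, 262 and 260.0 CPM in K14 tumours 1 to 4 and 399.9, 218, 248, 239 and 304 CPM in K5 tumours 1 to 5. K14 tumour 1 was far above the other 8 tumours, and without it, within the 15 libraries, 1 was lower and 2 higher (median −1.46), and with K5 tumour 1 kept 4 were lower and 0 higher (median −1.51). Skeletal muscle genes summed to 976 CPM in K14 tumour 1, 291 in K5 tumour 3 and 141 in K5 tumour 4, with at most 53.1 CPM in the other 6, and melanocyte genes to 227 CPM in K5 tumour 1, with 19.9 to 64.8 CPM in the other 8. Of 18 interferon-stimulated genes 0 were lower over all 19 libraries (background 3.53% of genes) but 8 within the 15 (background 5.67%, median −0.60). The 8 became 2 once K14 tumour 1 or K5 tumour 5 was left out as well, and 3 once K5 tumour 2 was. The 18 genes summed to 114, 51.2, 70.6, 63 and 53.3 CPM in the K5 tumours and 109, 74.3, 73.5 and 84.1 CPM in the K14 tumours, highest in K5 tumour 1 and K14 tumour 1. Of 22 fibroblast, 17 endothelial, 17 macrophage and monocyte and 20 T and NK cell genes, 0 had an unadjusted p under 0.05 over all 19 libraries. The same held for 14 melanocyte and 12 adipocyte genes, but without K14 tumour 1 the melanocyte genes had 6 higher (median 1.57), and within the 15 libraries without it the adipocyte genes had 5 higher (median 2.97, against 0.97 with it). In those 2 fits, 1607 of 32012 and 2887 of 31946 genes tested had an unadjusted p under 0.05 in either direction.

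**Figure D5:**
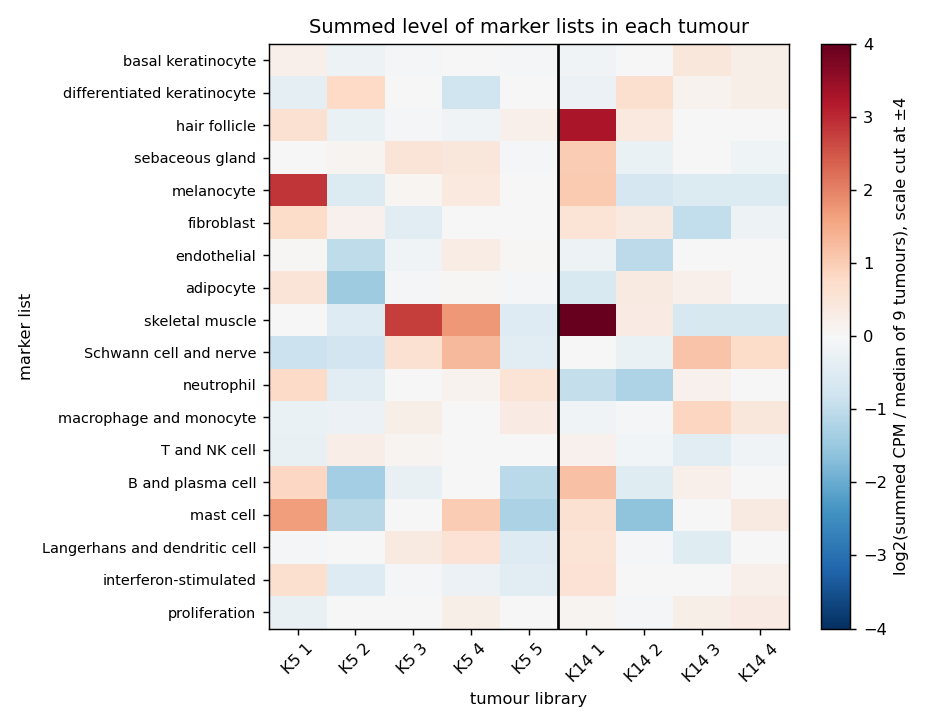
Summed CPM of each cell type and programme list (y axis) in each tumour (x axis), coloured by log2 of its ratio to the median of the 9 tumours (colour scale cut at ±4). K14 tumour 1 stands out in hair follicle and skeletal muscle genes, K5 tumours 3 and 4 in skeletal muscle genes and K5 tumour 1 in melanocyte genes.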

How the data were processed

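Poly(A) RNA of 9 tumours was compared in a table of 19 libraries. Per the labels and the study's methods, the authors trimmed reads (Trim Galore), aligned them to GRCm38 (HISAT2 2.1.0), counted them per gene (featureCounts, Subread 1.6.3) and adjusted for a sequencing batch with ComBat-seq, versions being those in the submitters' processing notes. The deposited values are therefore estimated counts rather than reads. They were whole already, were not scaled by the authors for depth, and were treated as estimated counts although plain counts had been assumed in the design. Whether strand or read pairs were used in counting is not stated. The labels give no batch, so the adjustment could have changed differences between K5 tumour 1 and the rest in either direction, and no error below covers it.

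As in the study, genes that reached 5 counts in any library were kept. Scaling was by TMM. The test was that of edgeR 4.0.16 in R 4.3.3 (robust quasi-likelihood F test, two-sided, 4 groups in 1 fit), with Benjamini-Hochberg adjustment over all genes tested and a threshold of 0.05. CPM values were scaled by TMM. Log2 differences are K5 minus K14, with standard errors. Groups at 3 counts or fewer were set to 3 counts per library and their folds given as bounds. The study used DESeq2, run here (1.42.0) as an alternative. The test was also tested on simulated data, where it made 6 false calls over all 19 libraries and 3 within the 15. Single values were tested by exact permutation.

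Named genes were all those called (1 of them is not described here), the 8 per direction with the smallest p among protein-coding genes without overlap and with an absolute log2 difference over 1, the drivers, HOX genes and factors of the study, and members of lists. List members outside the largest and smallest differences, the neighbours on chromosome 5 and the motifs were chosen after their values were seen, and the members and all 41 lists were chosen with earlier results of these data known. None of the 16 pairs of tumours of the same genotype agreed within sampling noise, and other pairs were not compared. Gene positions came from GENCODE (34694 of 34807 identifiers matched) and promoters from RefSeq, both on GRCm38. Standard errors cover counting error and the spread between tumours as estimated in the fit, and floors cover counting error only.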

Additional observations from a re-analysis of the deposited data

Results flagged for a closer look

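In each gene described, every group of 4 or more tumours was scanned for 1 tumour whose distance to the nearest other, as a share of the whole range, passed Dixon's 95% critical value. Of 70 groups scanned 11 had such a tumour, where chance gives about 5%. In 7 it was K5 tumour 1. It was above the other K5 tumours in Hoxa9 (6.96 CPM), Esr1 (12.7 CPM), Hoxb8 (30.3 CPM), Foxn3 (115 CPM), Hoxc10 (2.99 CPM), Hoxb9 (20.5 CPM) and Gm48139 (0.492 CPM). These genes had been called without K5 tumour 1, so its distance from the other K5 tumours is described here and not tested.

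K5 tumour 5 was above the other K5 tumours in Gtf2e2 (86.3 CPM) and Ccn1 (307 CPM). K14 tumour 2 was below the other K14 tumours in Ccn1 (17.8 CPM) and above them in Mab21l3 (32.5 CPM). In each of these 4 the tumour lay on the far side from the other genotype.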

How the results depend on the processing

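Over all 19 libraries the count of called genes was 0 in every edgeR fit that kept all 4 groups, including each fit without 1 tumour, and changed in 2 alternatives: 199 with DESeq2 and 2 in a fit of the K5 and K14 tumours alone (Mab21l3 and Sox21, both lower). Within the 15 libraries the count of 17 became 534 with DESeq2. It ranged from 2 (without K5 tumour 2) to 8 (without K5 tumour 5) when 1 tumour was left out, Hoxa9 and Esr1 being called in each of those 8 fits. It was 17 with other size factors or no filter, 18 with a mean of at least 1 CPM (12 shared) and 22 with K5 and K14 tumours alone (8 shared). The difference on the second principal component was 48.9 with 5000 genes (exact permutation p = 0.0794). Hoxb8 over all 19 libraries (0.33) ranged from −7.04 (without K5 tumour 1) to 1.02 (without K14 tumour 1) when 1 tumour was left out, and changed sign to −5.99 with a term for the 4 libraries that stood together, and to −3.81 with a replicate block. The cause was not tested.

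With the replicate number as a block, 6 genes were called within the 15 libraries (3 shared with the 17) and 0 over all 19. The numbers did not pair the samples: deviations of same-numbered tumours from their group means correlated at −0.12, 0.44, −0.27 and −0.30 over 14629 genes.

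On simulated counts, differences of 1 on the log2 scale were recovered in 39.4% of genes over all 19 libraries and in 37.9% within the 15. Most changes of that size were therefore missed in the simulation. It took its spread from these data and changed only genes with a mean of at least 1 CPM. Neither depth nor sample number was varied.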

Other observations

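Of 15 p53 target and senescence genes, 1 was higher and 2 lower over all 19 libraries at an unadjusted p under 0.05 (background 2.54% and 3.53% of genes), and none passed edgeR's adjusted threshold, while DESeq2 called Trp53inp1, which was lower. Without K14 tumour 1 or K14 tumour 2 the counts were 0 and 1. Cdkn1a, the gene of the cell cycle inhibitor p21, was at 306, 291, 313, 311 and 349.6 CPM in the K5 tumours and 222, 218, 283 and 253 CPM in the K14 tumours. All K5 values were above all K14 values, by 0.37 ± 0.16 on the log2 scale (edgeR unadjusted p = 0.029). Bbc3, which encodes the apoptosis inducer PUMA, was at 3.19, 3.06, 3.41, 3.99 and 2.83 against 6.74, 7.51, 3.88 and 3.49 CPM (−0.71 ± 0.27, edgeR unadjusted p = 0.017), and the groups overlapped at K5 tumour 4. Bcl3 and Cdkn1a overlap predicted transcripts on the opposite strand.

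Of 22 genes whose transcripts lack a poly(A) tail, replication-dependent histones and other RNAs, 5 were higher over all 19 libraries (background 2.54% of genes) and 1 without K5 tumour 1. Within the 15 libraries 1 was higher (background 4.44%). Near-identical histone copies are uncertain in counting.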
